A study of Mus musculus with 6 samples.

Results

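Genes of fatty acid oxidation and synthesis were followed in RAW264.7 cells, a mouse macrophage line, after blockade of the membrane-bound protease MMP14 during activation by lipopolysaccharide (LPS). The genes were taken by symbol from a list of 34, and all 34 were among the 40773 symbols of the count table. They comprised 21 genes of fatty acid uptake and oxidation and 13 genes of fatty acid synthesis, which are described apart. One group of 3 cultures received LPS at 100 ng/mL together with 3A2, an antibody that neutralizes MMP14, at 50 µg/mL for 24 h (LPS+3A2). The other group of 3 cultures received the same LPS dose for the same time without the antibody (LPS). Both groups were thus LPS-activated cells of the same line, and cells without LPS or with a control antibody were not analysed here. The comparison asks which mRNAs of fatty acid metabolism differed when MMP14 was neutralized.

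Fatty acids reach a cell from lipoproteins or by uptake, are joined to coenzyme A, enter the mitochondrion as carnitine esters and are shortened stepwise to acetyl-CoA by beta-oxidation. In the opposite direction, cytosolic acetyl-CoA is carboxylated to malonyl-CoA and built into palmitate, which is then elongated, desaturated and esterified. Malonyl-CoA inhibits the carnitine step, so that synthesis restrains oxidation. In macrophages, LPS is known to favour glycolysis and lipid synthesis over fatty acid oxidation, whereas oxidation is a feature of alternatively activated cells.

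The libraries held 6060732 to 6537419 counts in the LPS+3A2 group and 6431096 to 7432553 in the LPS group. LPS+3A2 replicate 3 stood farthest from the other libraries: it was the highest or lowest of the 6 for 55% of the 11498 genes tested, and for 19 of 33 tested members (57.6%). LPS+3A2 replicate 2 was extreme for 34.2% of all genes and for 15 members (45.5%). Mitochondrially encoded mRNA made up 2.54%, 2.18% and 3.06% of counts in the LPS+3A2 libraries and 2.35%, 2.25% and 2.22% in the LPS libraries. All 9 macrophage markers were detected, and their summed level was 5160 to 5520 CPM (counts scaled to a common library total; here without TMM factors) with LPS+3A2 and 6060 to 6180 CPM with LPS. The groups did not overlap in that sum, of which Lyz2 made the largest part. Of 8 macrophage markers tested, Lyz2, Csf1r and Itgam each lay below the LPS libraries in all LPS+3A2 libraries. Their fold changes were 0.871, 0.878 and 0.942 (adjusted p = 0.719, 0.719 and 0.812 by edgeR's quasi-likelihood test). Such separation in the lower direction was seen for 6.46% of all genes tested. Spi1 stood at 0.864 with overlap (adjusted p = 0.719) and Adgre1 at 1.03 (adjusted p = 0.967). Cd68, Ptprc and Fcgr1 also overlapped, at fold changes of 0.988, 0.970 and 0.923. The adipocyte markers Adipoq, Cidec, Lep, Retn and Cfd had 0 counts in every library, and Plin1 had a count in 1 LPS library. The remaining adipocyte marker, Lipe, which encodes hormone-sensitive lipase, was detected in all libraries, at 13.7 ± 0.458 CPM with LPS+3A2 and 15.7 ± 2.30 CPM with LPS (SD, n = 3 each). The part of marker levels or of single libraries in the values below was not tested. A bulk library sums the mRNA of all cells, so fewer cells that express a gene and less mRNA per cell cannot be told apart.

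No mRNA of fatty acid metabolism passed the test between macrophages treated with LPS+3A2 and with LPS, and point estimates were small along the whole route from uptake to beta-oxidation and from acetyl-CoA to desaturated lipid. Of the 20 oxidation genes with enough counts to be tested, 0 were higher and 0 lower at a Benjamini-Hochberg adjusted p under 0.05 by edgeR's quasi-likelihood test. Of the 13 synthesis genes, likewise, 0 were higher and 0 lower. The share called among all 11498 genes was 0%. DESeq2 and limma-voom also called 0 of the 33. At an unadjusted p under 0.05 there were 0 of 33 members, against 6.51% of all genes tested. The smallest adjusted p was 0.748 among oxidation genes and 0.767 among synthesis genes.

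**Figure D1:**
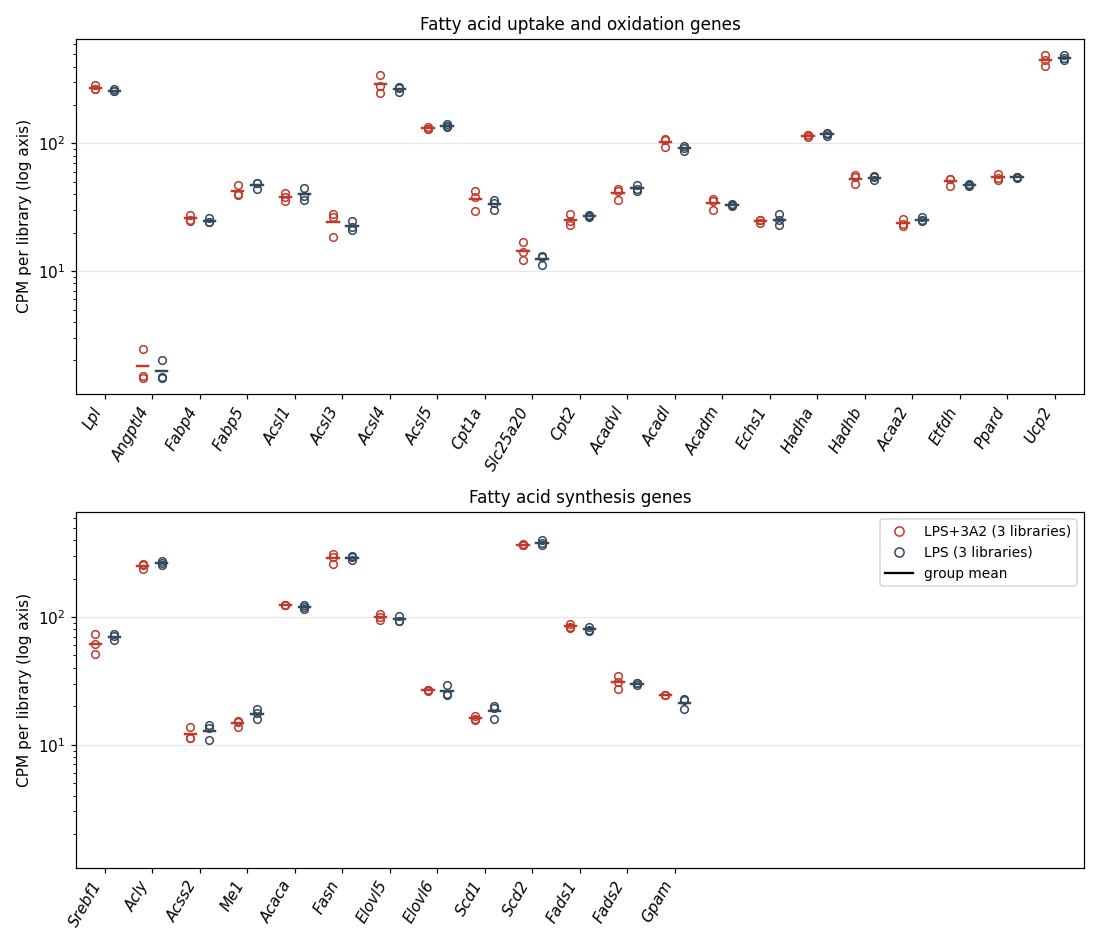
Level of each gene in each library, in CPM on a log axis, with oxidation genes above and synthesis genes below. Red circles are the 3 LPS+3A2 libraries, dark circles the 3 LPS libraries, and bars the group means. The groups lie side by side for every gene, from Angptl4 at 1.81 CPM with LPS+3A2 and 1.64 CPM with LPS to Ucp2 at 449 CPM with LPS+3A2 and 469.8 CPM with LPS.

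The 20 tested oxidation genes had fold changes, LPS+3A2 over LPS, between 0.896 and 1.17. Of these, 10 lay above 1 and 10 below, with a median log2 fold change of -0.014. The 13 synthesis genes lay between 0.844 and 1.15, with 6 above and 7 below 1 and a median log2 fold change of -0.011. Over all genes tested the median was 0.0017.

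The replicates set limits to the size of any difference. For all 33 tested members, the 95% confidence bounds of the fold change stayed inside 1.5-fold either way, as they did for 79.6% of all genes. The lowest lower bound was 0.692 (Me1) and the highest upper bound was 1.46 (Slc25a20). An interval within 1.25-fold was reached by 11 of 20 oxidation genes and 8 of 13 synthesis genes, 57.6% of the members together, and by 42.8% of all genes. The tested members had group means no lower than 12.1 CPM, and their median standard error of the log2 fold change was 0.10, against 0.12 over all genes. An adjusted p above the threshold does not show that the groups were alike, and differences inside these intervals were not detectable here.

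**Figure D2:**
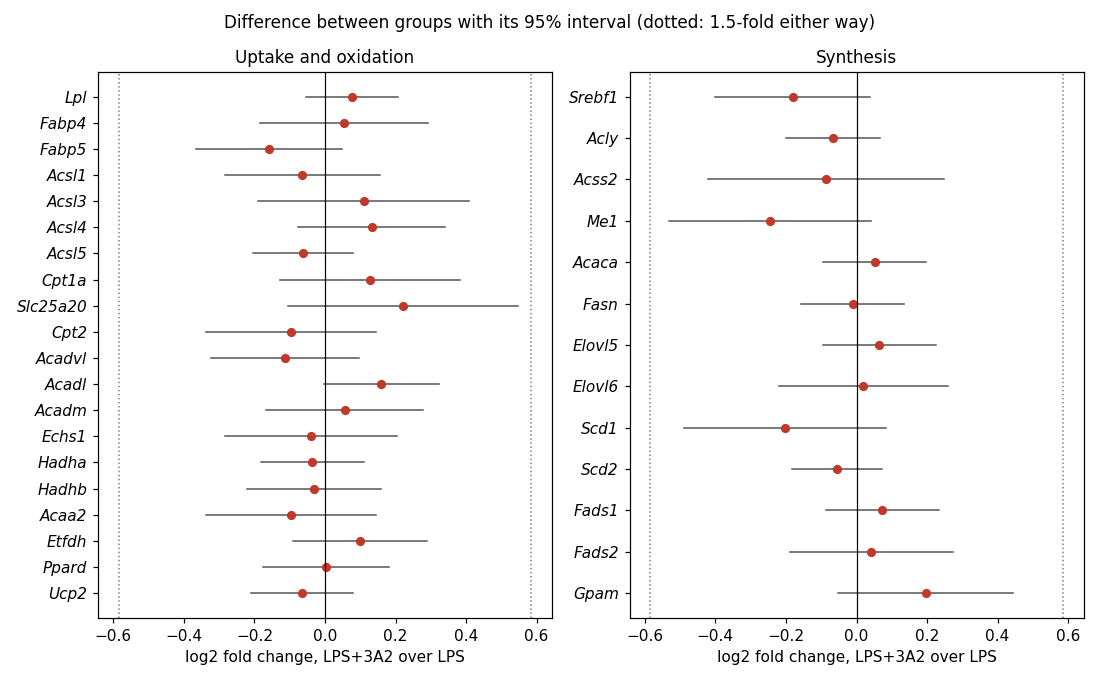
Log2 fold change, LPS+3A2 over LPS, of the 20 tested oxidation genes (left) and the 13 synthesis genes (right), with horizontal lines for 95% confidence intervals from edgeR and dotted lines at 1.5-fold either way. Every interval crosses 0 and stays inside the dotted lines, the closest being those of Slc25a20 and Me1.

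Among the genes of fatty acid uptake, Lpl encodes lipoprotein lipase, which releases fatty acids from the triglycerides of lipoproteins. It measured 287, 265 and 268 CPM in LPS+3A2 libraries, against 258, 265 and 256 CPM in LPS libraries. The groups met at their edges, with 1 LPS+3A2 library apart at the top. The fold change was 1.05 (95% interval 0.963 to 1.15, adjusted p = 0.838).

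Angptl4 encodes a secreted inhibitor of lipoprotein lipase and was the only member below the filter on low counts. It had 9, 16 and 9 counts in LPS+3A2 libraries and 10, 11 and 13 counts in LPS libraries, or 1.81 CPM over the LPS+3A2 group and 1.64 CPM over the LPS group. The ratio of LPS+3A2 to LPS was 1.10, with a counting interval of 0.664 to 1.83 that covers counting error only. The counts overlapped between groups, and a difference in Angptl4 was not detectable at this depth.

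Fabp5 and Fabp4 encode cytosolic carriers that ferry fatty acids within the cell. Fabp5 measured 47.5, 40.2 and 39.4 CPM with LPS+3A2, against 43.9, 49.1 and 48.8 CPM with LPS. LPS+3A2 replicates 2 and 3 lay below all LPS libraries and replicate 1 among them, and the fold change of 0.896 was the lowest of the oxidation genes (0.776 to 1.03, adjusted p = 0.805). Fabp4 averaged 25.8 ± 1.65 CPM with LPS+3A2 and 24.9 ± 1.07 CPM with LPS (SD, n = 3 each), at a fold change of 1.04. Per kilobase of exon, Fabp5 exceeded Fabp4 by 1.496 ± 0.213 with LPS+3A2 and 1.73 ± 0.176 with LPS, and the ratios overlapped between groups.

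The long-chain acyl-CoA ligases activate fatty acids by joining them to coenzyme A. Acsl4, which prefers arachidonic acid, was the most abundant of the 4 and had the smallest p among them. It measured 283, 247 and 346 CPM in LPS+3A2 libraries, against 276, 269 and 253 CPM in LPS libraries. The LPS+3A2 libraries held both the highest and the lowest value of all 6, and the fold change was 1.10 (0.948 to 1.27, adjusted p = 0.82). Without LPS+3A2 replicate 2 its adjusted p was 0.126, and without replicate 3 its log2 fold change was -0.0070. Acsl3 shared this pattern: as log2 deviations from the mean of the 6 libraries, it stood at 0.19, -0.33 and 0.28 in the LPS+3A2 replicates, against 0.03, -0.17 and 0.32 for Acsl4. Acsl5 averaged 131 ± 2.82 CPM with LPS+3A2 and 137 ± 3.52 CPM with LPS, at a fold change of 0.958. Acsl1 averaged 38.2 ± 2.59 CPM with LPS+3A2 and 40.0 ± 4.47 CPM with LPS, at a fold change of 0.957.

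The carnitine shuttle carries activated fatty acids into the mitochondrion. Cpt1a, the outer-membrane enzyme that sets the rate of entry, measured 29.5, 42.0 and 37.9 CPM with LPS+3A2, against 34.0, 36.0 and 30.2 CPM with LPS. The LPS+3A2 libraries again spanned the LPS libraries on both sides, and the fold change was 1.09 (0.914 to 1.30, adjusted p = 0.854). Slc25a20, the inner-membrane carnitine-acylcarnitine carrier, measured 16.9, 12.3 and 14.2 CPM with LPS+3A2, against 11.1, 13.1 and 12.9 CPM with LPS. A pair of LPS+3A2 libraries lay above all LPS libraries and the remaining one among them. Its fold change of 1.17 was the highest of all members (0.929 to 1.46, adjusted p = 0.817). Cpt2, which returns the fatty acid to coenzyme A inside the mitochondrion, averaged 25.2 ± 2.71 CPM with LPS+3A2 and 27.0 ± 0.454 CPM with LPS, at a fold change of 0.935.

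Beta-oxidation opens with acyl-CoA dehydrogenases that differ in the chain length they accept. Acadl, the long-chain enzyme, had the smallest p-value of any member. It measured 93.0, 106 and 107 CPM in LPS+3A2 libraries, against 91.6, 94.99 and 87.7 CPM in LPS libraries. LPS+3A2 replicates 2 and 3 lay above all LPS libraries, whereas replicate 1 fell within their range. The fold change was 1.12 (0.998 to 1.25), at an adjusted p of 0.748 by edgeR's quasi-likelihood test. The medium-chain gene Acadm stood at 1.04 and the very-long-chain gene Acadvl at 0.925, so the 3 dehydrogenases did not lie on the same side of 1. Acadvl is less certain than the others, since 42.9% of its annotated exon bases overlap Dvl2 on the opposite strand and the strand setting of the counting is not given in the sources used here.

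Hadha and Hadhb encode the alpha and beta subunits of the mitochondrial trifunctional protein, which carries out the remaining steps on long chains. Their RefSeq start sites lie 273 bases apart on opposite strands of mouse chromosome 5, so that both genes are transcribed outward from the same short stretch. The Hadhb window, from 250 bases before to 50 bases after its start (GRCm38.p6, chr5:30155003-30155302, plus strand), is shown because this shared stretch lies upstream of both subunit genes. Capitals mark the bases from the Hadhb start site onward, and 228 of its bases also belong to the corresponding Hadha window.

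Hadhb promoter: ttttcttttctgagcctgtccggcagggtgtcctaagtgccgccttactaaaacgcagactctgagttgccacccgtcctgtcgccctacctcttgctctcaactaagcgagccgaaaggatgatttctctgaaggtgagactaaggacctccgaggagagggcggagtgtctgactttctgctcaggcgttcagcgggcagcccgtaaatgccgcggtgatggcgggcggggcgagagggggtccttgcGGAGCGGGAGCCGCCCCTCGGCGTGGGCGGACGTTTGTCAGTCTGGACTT

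Hadha had the highest CPM of the beta-oxidation group, although Acadl stood above it per kilobase of exon. It measured 117, 112 and 115 CPM with LPS+3A2, against 115, 121 and 118 CPM with LPS. The groups overlapped within a narrow range, at a fold change of 0.976 (0.882 to 1.08, adjusted p = 0.937). Hadhb averaged 52.8 ± 4.53 CPM with LPS+3A2 and 53.9 ± 2.33 CPM with LPS, at 0.979-fold (0.858 to 1.12). The ratio of Hadha to Hadhb counts was 2.16, 2.36 and 2.04 in LPS+3A2 libraries, against 2.23, 2.23 and 2.10 in LPS libraries. Both groups averaged 2.19, with SDs of 0.157 with LPS+3A2 and 0.0746 with LPS. Per kilobase of exon the ratio was 1.13 in both groups, so the subunits of this complex had mRNA levels close to each other once length was taken into account. Part of the Hadhb counts is uncertain, as 19.7% of the 50-base stretches of its transcripts also occur in transcripts of other annotated genes, mainly Gm13910.

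The other genes of this group lay nearer to 1 than Acadl. The short-chain enoyl-CoA hydratase Echs1 stood at 0.973 and the thiolase Acaa2 at 0.936. Etfdh, which passes electrons from the dehydrogenases to ubiquinone, averaged 50.5 ± 3.68 CPM with LPS+3A2 and 47.1 ± 0.765 CPM with LPS, at 1.07-fold.

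Ucp2 encodes an uncoupling protein of the inner mitochondrial membrane and was the most abundant member. It measured 452, 489 and 406 CPM in LPS+3A2 libraries, against 452, 465 and 492 CPM in LPS libraries. LPS+3A2 replicate 2 lay within the LPS range and replicate 3 was the lowest of the 6. Replicate 1 stood just under the lowest LPS library, at 452.26 against 452.34 CPM. The fold change was 0.956 (0.865 to 1.06, adjusted p = 0.867). Ppard, the PPAR nuclear receptor among the members, averaged 54.4 ± 3.16 CPM with LPS+3A2 and 54.3 ± 0.661 CPM with LPS, a fold change of 1.00 (0.885 to 1.14). The receptor Ppara and the coactivator Ppargc1a, which drive oxidation genes in liver and muscle, had 0 counts in all 6 libraries, for which the limit of 3 counts is 0.404 to 0.495 CPM in a library. Pparg had a single count. The table also lists 0 counts in all 6 libraries for Decr1, a mitochondrial oxidation enzyme of broad use. As the annotation behind the table is not given, an exact 0 may be a symbol that received no reads in counting, and no absence of these mRNAs is read from it.

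The promoter of Ucp2 (GRCm38.p6, chr7:100493108-100493407, plus strand) is shown for the most abundant transcript of the list, and because it held the sterol regulatory element sought, TCACNCCAC, here in capitals 60 bases before the start.

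Ucp2 promoter: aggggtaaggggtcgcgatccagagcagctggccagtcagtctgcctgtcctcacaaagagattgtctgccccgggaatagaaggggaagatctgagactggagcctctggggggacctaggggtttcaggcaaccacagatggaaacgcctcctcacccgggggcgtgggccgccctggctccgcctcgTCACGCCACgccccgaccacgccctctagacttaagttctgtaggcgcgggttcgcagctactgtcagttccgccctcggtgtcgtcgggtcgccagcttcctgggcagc

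Windows of this kind were present for 26 of the 34 members in the RefSeq table and were searched on both strands for 3 motifs. The sterol regulatory element occurred in 2 members, Ucp2 and Acsl1, and in 1.44% of all 27025 genes with a window. The CCAAT box, written CCAAT, occurred in 13 of 26 members, against 41.1% of all genes. A direct repeat of AGGTCA with 1 base between the copies, a form bound by PPAR receptors, occurred in 0 of 26 members and in 0.0481% of genes. These matches describe letters in the windows and say nothing of binding in these cells.

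Turning to synthesis, Srebf1 encodes SREBP-1, a transcription factor that drives lipogenic genes. It measured 61.7, 73.1 and 50.9 CPM in LPS+3A2 libraries, against 65.6, 73.9 and 71.4 CPM in LPS libraries. LPS+3A2 replicates 1 and 3 lay below all LPS libraries and replicate 2 within their range. The fold change was 0.882 (0.757 to 1.03, adjusted p = 0.787). Without LPS+3A2 replicate 2 the log2 fold change was -0.32 at an adjusted p of 0.118, the smallest that any member had with any setting tried, and without replicate 3 it was nearer to 0 at -0.060.

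The members that supply acetyl-CoA and NADPH are Acly, Acss2 and Me1. Acly, the ATP-citrate lyase that makes cytosolic acetyl-CoA from citrate, measured 259.6, 257 and 239.8 CPM with LPS+3A2, against 254, 275 and 263 CPM with LPS. The groups overlapped, at a fold change of 0.955 (0.871 to 1.05, adjusted p = 0.854). Acss2, which makes acetyl-CoA from acetate, averaged 12.1 ± 1.35 CPM with LPS+3A2 and 12.9 ± 1.82 CPM with LPS, at a fold change of 0.942.

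Me1, the cytosolic malic enzyme that yields NADPH, measured 15.4, 13.9 and 15.2 CPM with LPS+3A2, against 17.6, 19.0 and 16.0 CPM with LPS. All LPS+3A2 libraries lay below all LPS libraries, by a small gap. Such separation in the lower direction was seen for 1 of 33 members and for 6.46% of all genes. The fold change of 0.844 was the lowest of any member (0.692 to 1.03, adjusted p = 0.767). Stretches shared with other annotated genes, mainly Gm7049, covered 28.3% of Me1 transcripts, so part of its counts is uncertain.

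The chain itself is built by acetyl-CoA carboxylase, which makes malonyl-CoA, and by fatty acid synthase. The carboxylase gene Acaca measured 125, 124 and 123 CPM in LPS+3A2 libraries, against 115, 121 and 124 CPM in LPS libraries. The LPS+3A2 libraries were close to each other and met the top of the LPS range, at a fold change of 1.04 (0.937 to 1.15, adjusted p = 0.902). Stretches shared with other genes, mainly Gm5182, covered 30.4% of Acaca transcripts, so part of its counts is uncertain. The synthase gene Fasn measured 294, 312 and 261 CPM in LPS+3A2 libraries, against 279.6, 296 and 299 CPM in LPS libraries. Its fold change of 0.992 was among the closest to 1 (0.897 to 1.10, adjusted p = 0.981), with the LPS+3A2 libraries spread on both sides of the LPS range.

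The Fasn promoter (GRCm38.p6, chr11:120824498-120824797, minus strand) is shown for the central enzyme of the pathway, with its CCAAT boxes on either strand in capitals. They begin 90, 62 and 59 bases before the start, and the pair nearest the start overlaps.

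Fasn promoter: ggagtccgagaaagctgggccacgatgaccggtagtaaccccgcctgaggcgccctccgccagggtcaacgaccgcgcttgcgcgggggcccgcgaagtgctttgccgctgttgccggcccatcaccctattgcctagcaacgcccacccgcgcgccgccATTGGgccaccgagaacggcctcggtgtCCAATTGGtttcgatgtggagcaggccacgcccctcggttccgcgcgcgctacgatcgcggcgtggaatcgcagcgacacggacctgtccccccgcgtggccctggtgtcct

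Palmitate and dietary fatty acids are lengthened by elongases. Elovl5, which acts on polyunsaturated chains, measured 99.96, 95.3 and 106 CPM with LPS+3A2, against 92.6, 102 and 92.7 CPM with LPS. The groups overlapped, at a fold change of 1.05 (0.936 to 1.17, adjusted p = 0.886). Elovl6, which extends palmitate to stearate, averaged 26.6 ± 0.201 CPM with LPS+3A2 and 26.3 ± 2.64 CPM with LPS, at a fold change of 1.01.

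Desaturases place double bonds, and the stearoyl-CoA desaturases Scd1 and Scd2 make monounsaturated fatty acids. Scd2 measured 365, 366 and 376 CPM in LPS+3A2 libraries, against 381, 366 and 402 CPM in LPS libraries. The groups met at 366 CPM, and the fold change was 0.963 (0.882 to 1.05, adjusted p = 0.879). Scd1 measured 16.7, 16.0 and 15.5 CPM with LPS+3A2, against 15.8, 20.2 and 19.5 CPM with LPS. LPS replicate 1 lay among the LPS+3A2 libraries and the other LPS libraries above them, at a fold change of 0.868 (0.712 to 1.06, adjusted p = 0.813). Per kilobase of exon, Scd2 stood above Scd1 by 20.4 ± 1.06 times with LPS+3A2 and 18.6 ± 2.66 times with LPS, so Scd2 was by far the main stearoyl-CoA desaturase transcript in both groups. Fads1 and Fads2, the front-end desaturases of polyunsaturated fatty acids, stood at fold changes of 1.05 and 1.03.

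Gpam encodes a mitochondrial glycerol-3-phosphate acyltransferase that commits fatty acids to glycerolipids. It measured 24.5, 24.5 and 24.7 CPM in LPS+3A2 libraries, against 22.3, 22.7 and 19.2 CPM in LPS libraries. All LPS+3A2 libraries lay above all LPS libraries, which was the case for 1 of 33 members and for 5.84% of all genes. The fold change was 1.15 (0.964 to 1.36, adjusted p = 0.799).

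**Figure D3:**
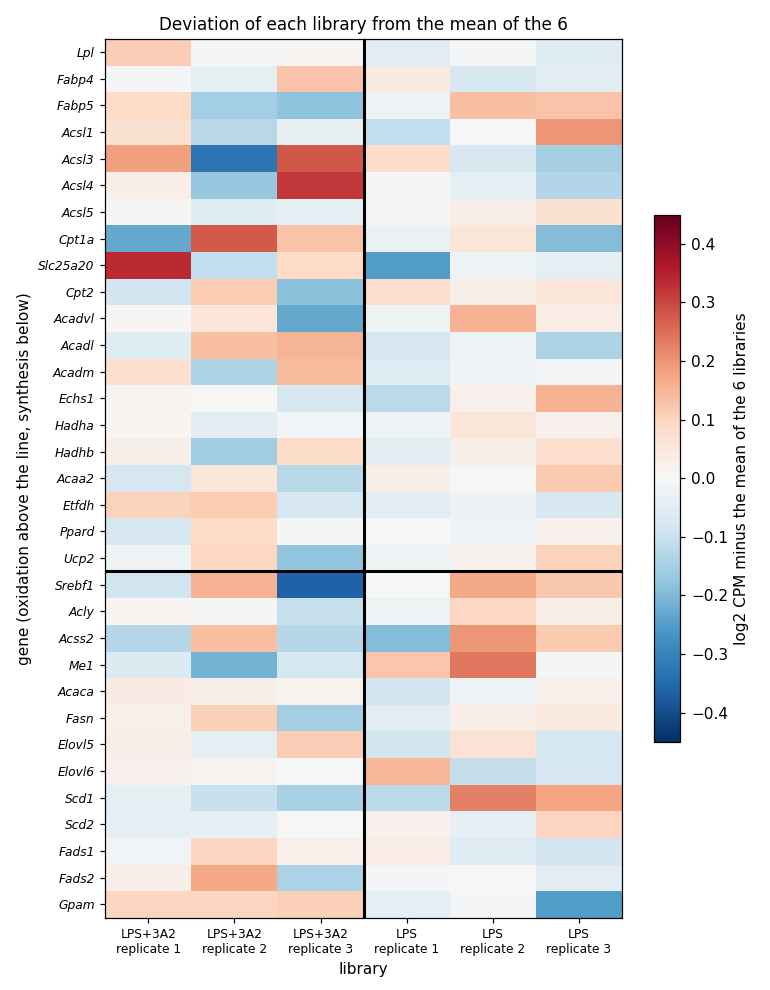
Log2 CPM of each tested gene in each library minus its mean over the 6 libraries, oxidation genes above the horizontal line and synthesis genes below it, LPS+3A2 libraries left and LPS libraries right. Red is above and blue below the mean. The strongest colours stand within the LPS+3A2 group and change sign between its replicates, as for Acsl3 at -0.33 and 0.28 and Srebf1 at 0.16 and -0.36 in replicates 2 and 3.

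The spread among the LPS+3A2 libraries was wider than the difference between the groups for several genes. The median absolute deviation from the mean of the 6 libraries, over all 33 tested members, was 0.043, 0.10 and 0.11 on the log2 scale in LPS+3A2 replicates 1, 2 and 3, and 0.047, 0.031 and 0.076 in LPS replicates 1, 2 and 3. Replicate 3 of the LPS+3A2 group carried 11 of its 19 extremes as the lowest value and 8 as the highest, and replicate 2 carried 8 lowest and 7 highest values among 15. Both lists summed to similar totals in all libraries. Oxidation genes together made 1864, 1835 and 1859 CPM with LPS+3A2, against 1805, 1849 and 1848 CPM with LPS. Synthesis genes together made 1413, 1446 and 1361 CPM with LPS+3A2, against 1398, 1445 and 1452 CPM with LPS. Neither sum separated the groups.

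Levels can be compared between genes once counts are divided by exon length, here in CPM per kilobase of exon. On this scale Ucp2 stood first, at 113 ± 10.6 with LPS+3A2 and 118 ± 5.14 with LPS, above every other member in all 6 libraries and at the 96.0th percentile of tested genes with a length. Scd2 followed at 67.7 ± 1.11 with LPS+3A2 and 70.2 ± 3.29 with LPS, next to Lpl at 66.5 ± 2.96 with LPS+3A2 and 63.1 ± 1.09 with LPS. The ranges of Scd2 and Lpl overlapped. Acly came next, apart from Lpl, and the ranges overlapped between Acly and Acsl4, between Acsl4 and Acadl and between Acadl and Fabp5, whereas Elovl5, Acsl5 and Hadha each stood apart from the gene before. The lowest were Gpam, Scd1 and Acss2, with overlapping ranges, Acss2 at 3.18 ± 0.354 with LPS+3A2 and 3.38 ± 0.477 with LPS.

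**Figure D4:**
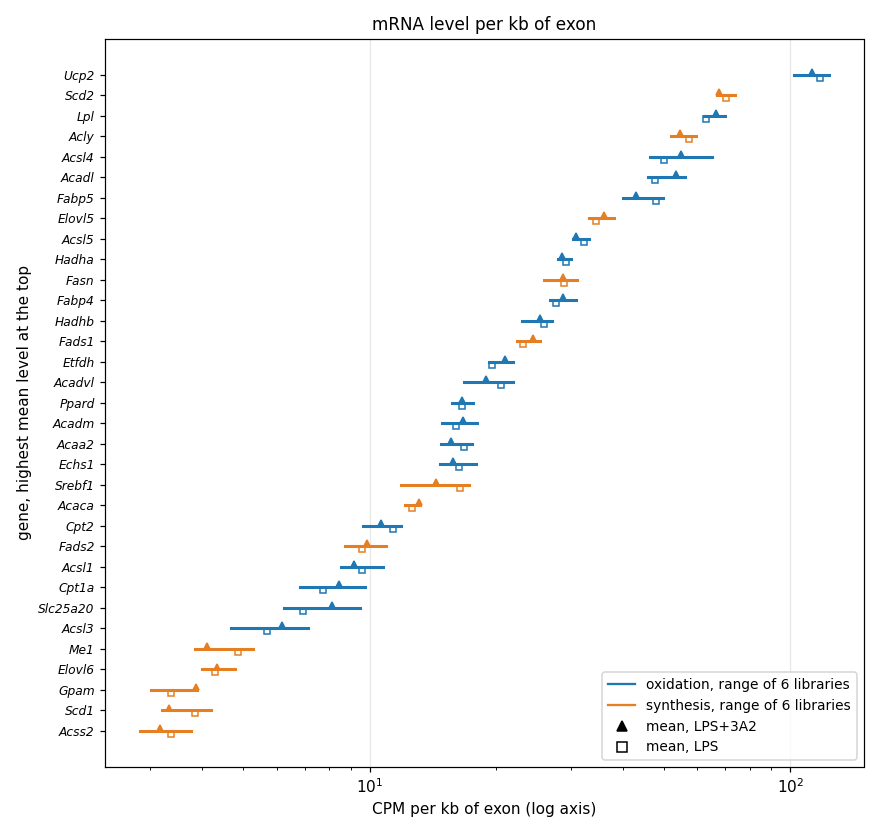
Level of each tested gene in CPM per kilobase of exon, on a log axis, highest at the top, with oxidation genes in blue and synthesis genes in orange. Lines give the range of all 6 libraries, triangles the LPS+3A2 means and squares the LPS means. The order runs from Ucp2, at 113 with LPS+3A2 and 118 with LPS, to Acss2, at 3.18 with LPS+3A2 and 3.38 with LPS, and the 2 means of a gene lie close together at every level.

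Within a step of the pathway, members differed widely in level in both groups. Elovl5 stood above Elovl6 by 8.33 ± 0.493 times per kilobase with LPS+3A2 and 8.12 ± 1.13 times with LPS. Acly stood above Acss2 by 17.3 ± 1.70 times with LPS+3A2 and 17.2 ± 1.95 times with LPS, the widest gap after that of the stearoyl-CoA desaturases among the pairs compared. Fasn stood above Acaca by 2.20 ± 0.190 times with LPS+3A2 and 2.30 ± 0.0246 times with LPS. This ratio is less certain, as part of the Acaca transcripts is shared with other genes. Acadl stood above Acadm by 3.22 ± 0.468 times with LPS+3A2 and 2.98 ± 0.144 times with LPS. In the carnitine shuttle, Cpt2 stood above Cpt1a by 1.28 ± 0.212 times with LPS+3A2 and 1.48 ± 0.144 times with LPS.

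Other genes of the same pathways gave no call either. Of 42 further oxidation genes in the table, 33 were tested, 0 were called and 4 had an unadjusted p under 0.05. Ppargc1b, a coactivator of mitochondrial genes, had the smallest p of these. It measured 23.5, 24.0 and 19.9 CPM with LPS+3A2, against 31.1, 26.9 and 26.6 CPM with LPS, without overlap. Its fold change was 0.799 (0.671 to 0.952, adjusted p = 0.719 by edgeR's quasi-likelihood test). The peroxisomal transporter Abcd3 measured 55.3, 53.9 and 68.6 CPM with LPS+3A2, against 53.8, 48.0 and 47.0 CPM with LPS, at a fold change of 1.19 (1.03 to 1.38, adjusted p = 0.719). The LPS+3A2 libraries lay above the LPS libraries by a small margin. Crot, a peroxisomal carnitine acyltransferase, and the peroxisomal thiolase Acaa1a were the other 2, at 1.24 (1.02 to 1.49, adjusted p = 0.743) and 0.869 (0.758 to 0.997, adjusted p = 0.748). The peroxisomal genes among these 4 thus stood on both sides of 1. Crot was higher in all LPS+3A2 libraries than in all LPS libraries, whereas Acaa1a overlapped. Among the 33 tested, 2 were separated higher and 2 lower (6.06% each), against 5.84% and 6.46% of all genes.

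Of 40 further synthesis genes, 30 were tested, 0 were called and 3 had an unadjusted p under 0.05, all at fold changes above 1. Hsd17b12, the ketoacyl reductase of the elongation cycle, measured 93.6, 87.1 and 99.2 CPM with LPS+3A2, against 81.4, 85.9 and 73.4 CPM with LPS, without overlap. Its fold change was 1.16 (1.03 to 1.31, adjusted p = 0.719). The next were Insig1, which retains the SREBP complex in the endoplasmic reticulum, and Mbtps2, a protease that cuts SREBP free. Insig1 measured 21.6, 26.9 and 22.0 CPM with LPS+3A2, against 17.3, 21.9 and 16.6 CPM with LPS, overlapping by 1 library at a fold change of 1.26 (1.03 to 1.54, adjusted p = 0.734). Mbtps2 stood at 1.20 (1.02 to 1.40, adjusted p = 0.734 by edgeR's quasi-likelihood test), and Srebf1 had the point estimate of 0.882 given above. Further genes of the SREBP system overlapped between groups. Insig2 stood at 1.13, Mbtps1 at 0.972, Scap at 0.968 and Srebf2 at 0.949. Separation in the higher direction was seen for 1 of the 30 tested synthesis genes, Hsd17b12 (3.33%), against 5.84% of all genes. The unadjusted shares were 12.1% of the further oxidation genes and 10% of the further synthesis genes, against 6.51% of all genes tested.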

How the data were processed

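The deposited values were raw counts of reads for each gene symbol, in separate columns for the 6 libraries, and were used as they stand. Per the labels' protocols, libraries were made strand-specifically after depletion of ribosomal RNA and read from both ends, in biological triplicate. Per the submitters' processing notes, HISAT2 and edgeR were used, with no version, and the build was GRCh38, which is human, although the symbols are those of mouse. The counter, the annotation and the strand setting were not given in the sources used here.

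Counts were filtered with filterByExpr (11498 genes left of 18179 with a count), scaled by TMM and LPS+3A2 was tested against LPS by edgeR's quasi-likelihood F test with robust estimation (edgeR 4.0.16, R 4.3.3). The two-sided p-values were corrected over all genes tested by Benjamini-Hochberg, at a threshold of 0.05. The biological coefficient of variation was 0.0768. CPM values used the TMM-scaled totals, except for the sums of marker genes and the limits for genes at 0, which used the unscaled totals. The log2 deviations used a prior count of 2. Exon lengths were those of protein-coding transcripts in GENCODE M21, found for 10846 tested genes, and promoter windows came from RefSeq (GRCm38.p6). Sums, levels per kilobase and ratios between genes were described and not tested. For genes at 0, the upper limit was set at 3 counts. All pairs of libraries differed by more than sampling noise (chi-square per degree of freedom 3.33 to 21.96).

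The members and lists were chosen with earlier results of these data known. The rule for values in every library took the gene with the smallest p and the gene of highest CPM in each role group, and genes below the filter; of the further pathway genes it named the 2 with the smallest p in each list. Crot, Acaa1a and Mbtps2 are not named by this rule and were picked with their values in view. Alternatives were DESeq2 size factors, no filter, a floor of 1 CPM in every library, totals without mitochondrial genes and the 20 most abundant genes, DESeq2 1.42.0 and limma-voom (limma 3.58.1) on the same genes, the replicate number as a block, and leaving out each library.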

Additional observations from a re-analysis of the deposited data

How the results depend on the processing

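Under all alternatives tried, 0 of the 33 members and 0 of the further pathway genes were called. At an unadjusted p under 0.05 by edgeR, 2 oxidation and 1 synthesis members appeared without a filter (1120 of 18179 genes tested). Totals without mitochondrial and abundant genes gave 1 oxidation member (753 of 11498). Leaving out LPS+3A2 replicate 1 gave 3 oxidation members (638 of 11645). Leaving out LPS+3A2 replicate 2 gave 2 oxidation and 1 synthesis members (1752 of 11667). Over all genes, edgeR called 16 without a filter on low counts and 1 with the replicate block, and with 1 library left out it called 0 to 25. The 25 came without LPS+3A2 replicate 2, and 1 was called without LPS+3A2 replicate 3 and 1 without LPS replicate 1. Deviations of same-numbered libraries correlated at -0.0065, 0.032 and -0.16, against -0.164 to 0.161 for libraries of unlike number. With 3 libraries in a group, these values cannot tell whether same-numbered cultures were set up together. The replicate block called 0 members.

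The median log2 fold change of oxidation genes was 0.0072 without a filter and 0.0034 with a floor of 1 CPM in every library. It ranged from -0.0070 to 0.033 with 1 library left out. This median covered 20 genes in the main fit. It covered 21 without a filter, at the 1 CPM floor and in some fits with 1 library left out. The added gene was Angptl4, which has few counts. The median of synthesis genes ranged from -0.048 to 0.024 with 1 library left out. The alternatives with all libraries kept the direction of every member, in 231 of 231 values. With 1 library left out, 15 of 198 values changed direction, in 11 members, and the cause was not tested. These log2 fold changes ranged from -0.13 to 0.023 for Acsl1, -0.0085 to 0.28 for Acsl3, -0.0070 to 0.24 for Acsl4 and -0.0034 to 0.14 for Acadm. They ranged from -0.11 to 0.030 for Echs1, -0.081 to 0.038 for Hadhb, -0.043 to 0.042 for Ppard and -0.13 to 0.0038 for Ucp2. For Fasn they ranged from -0.071 to 0.059, for Elovl6 from -0.031 to 0.10 and for Fads2 from -0.040 to 0.12. Depth limits Angptl4 most, with 34 counts in each group.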
